A study of Hordeum vulgare with 12 samples.

Results

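Auxin response factors (ARFs) are the DNA-binding proteins through which the hormone auxin changes transcription. The account covers 6 barley genes of this family: HORVU.MOREX.r2.2HG0150790.1, HORVU.MOREX.r2.6HG0463500.1, HORVU.MOREX.r2.3HG0261550.1, HORVU.MOREX.r2.7HG0549250.1, HORVU.MOREX.r2.7HG0602930.1 and HORVU.MOREX.r2.6HG0489370.1. The prefix, which all identifiers of the deposited files share, is left out from here on. They were chosen by identifier from the 77 genes whose description in the authors' deposited table is auxin response factor, out of 63658 genes in all. The choice was made with the time course of these libraries known, so the changes of the 6 genes with time are given as a description and not as a test of the choice.

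The libraries came from crowns, the 2 mm junction of roots and stem where crown roots arise, of barley (Hordeum vulgare) seedlings of the cultivar Golden Promise. Seedlings were raised on 50 µM naphthylphthalamic acid (NPA), which blocks the polar transport of auxin, and the ½ Hoagland solution was then exchanged for one with 50 µM of the synthetic auxin 1-naphthaleneacetic acid (1-NAA). Crowns were taken before the exchange (0 h) and at 30 min, 1 h and 3 h of auxin, with 3 independent biological replicates at each of the 4 times and 5 crowns pooled in each. No untreated seedlings were harvested at the later times, so the effects of added auxin, of ending NPA, of a fresh solution and of the hour of day cannot be told apart.

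ARFs bind auxin response elements in the promoters of their targets. Without auxin, Aux/IAA proteins bind activator ARFs and bring in TOPLESS corepressors, and the targets stay silent. The receptors TIR1 and AFB bind auxin together with Aux/IAA proteins and mark these for breakdown, which frees the activator ARFs. In Arabidopsis, ARF7 and ARF19 are activators that turn on LOB domain genes at the start of lateral root formation, ARF2 is counted among the repressor ARFs, and ARF10, ARF16 and ARF17 are repressor ARFs whose transcripts are targets of the microRNA miR160. These roles come from Arabidopsis and are background for the barley genes.

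The 6 genes fall into 4 kinds by the homologs that the authors' deposited table lists for them. Gene 6HG0463500.1 (chromosome 6H, 55233606 to 55240718, minus strand) and gene 7HG0602930.1 (chromosome 7H, 568775519 to 568783838, minus strand) both have Arabidopsis ARF19 as first homolog. Gene 7HG0549250.1 (chromosome 7H, 65727418 to 65733551, plus strand) has no Arabidopsis homolog listed, but its first rice homolog, OS02T0141100, is also that of 6HG0463500.1. Gene 3HG0261550.1 (chromosome 3H, 590524299 to 590528565, minus strand) has Arabidopsis ARF2 and rice ARF4 as first homologs. Gene 2HG0150790.1 (chromosome 2H, 571703711 to 571705155, plus strand) has Arabidopsis ARF16 and rice ARF8. Gene 6HG0489370.1 (chromosome 6H, 328742876 to 328744087, plus strand) has no Arabidopsis or rice homolog listed, and the table gives the Brachypodium gene BRADI5G10910 for it. Coordinates are those of the deposited files, for which no source at hand names the genome build.

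The gene models differ in length. The coding length in the deposited count table is 3390 bases for 6HG0463500.1, 3531 for 7HG0602930.1, 3231 for 7HG0549250.1, 2481 for 3HG0261550.1 and 1173 for 2HG0150790.1. It is 357 bases for 6HG0489370.1, too short for a complete ARF, which holds a DNA-binding domain and a middle region. Whether the other models, among them that of 2HG0150790.1 with 1173 bases, are complete was not checked. None of the 6 genes overlaps another annotated gene. Each ARF19-like gene on the minus strand has a gene described as Protein AIG2 on the plus strand as its neighbour on the side of lower coordinates, at 1118 bases from 6HG0463500.1 and 909 bases from 7HG0602930.1. How reads that match several places were handled is not stated in the sources at hand, so reads of 6HG0463500.1 and 7HG0549250.1, which share a rice homolog, could have been divided between them.

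Libraries held 16093892 to 34019480 reads assigned to genes, and all 6 genes were well covered, with 154 reads for the lowest value (7HG0549250.1 at 0 h) and 4104 for the highest (3HG0261550.1 at 3 h). Levels are given as CPM, counts scaled to a library of fixed size, on library sizes scaled by TMM, a method that sets most genes equal between libraries. Differences are log2 fold changes with their standard error (SE) from edgeR's quasi-likelihood test over all 24920 genes with enough reads. A gene is called at a Benjamini-Hochberg adjusted p under 0.05. The fit leaves the replicate numbers out unless a block is named. Photosystem genes moved with time in the same libraries. The summed level of 195 photosystem and chlorophyll a-b binding genes was 6332 to 8410 CPM at 0 h, 5532 to 6603 at 30 min, 5624 to 6857 at 1 h and 4490 to 5209 at 3 h, and 19 of its 85 tested genes fell at 3 h (0.799% of all genes were called lower). Its part in the values of the 6 genes was not tested. In pooled crowns, a change in the number of cells of a type and a change in RNA per cell cannot be told apart. The summed level of 13 genes described as KNOX homeobox was 248 to 277 CPM at 0 h, 240 to 296 at 30 min, 281 to 294 at 1 h and 198 to 275 at 3 h, so that the libraries of 1 h lay above those of 0 h. Whether each gene of this list marks shoot meristem was not checked, so the sum is not read as its amount. That of 24 grain storage genes was 92.1 to 107 CPM at 0 h, 97.9 to 112 at 30 min, 104 to 113 at 1 h and 89.8 to 129 at 3 h. The 1 gene described as a root hair gene that the list could use had no read.

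At 3 h, 5 of the 6 genes were called higher than at 0 h, and 6HG0489370.1 was not. Over all genes 2.48% were called at 3 h, 1.68% of those tested as higher, and the choice of the 6 genes used this contrast, so nothing is read from the count. With the replicate number as a block, the same test called 1269 genes in place of 617, and 5 of the 6 again. The block took in the libraries of all 4 times. The pairing by number was less clear for replicate 2 and was not taken to hold for 1 h and 0 h. In the fit without the block, none of the 6 was called at 30 min or at 1 h, when 0.00401% and 0.0963% of all genes were called by edgeR. At an unadjusted p under 0.05 by edgeR there was 1 of the 6 at 30 min, beside 1095 of all 24920 genes. At 1 h there were 2 of the 6, beside 1432 of all genes. DESeq2 called 0 of the 6 at both times, beside 89 and 114 of all genes. The F-test over the 4 times, also without the block, called 3 of the 6 (2.30% of all genes). The calls with the block at these times and in the F-test are given in the last section. The plot of levels by library shows every value.

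**Figure D1:**
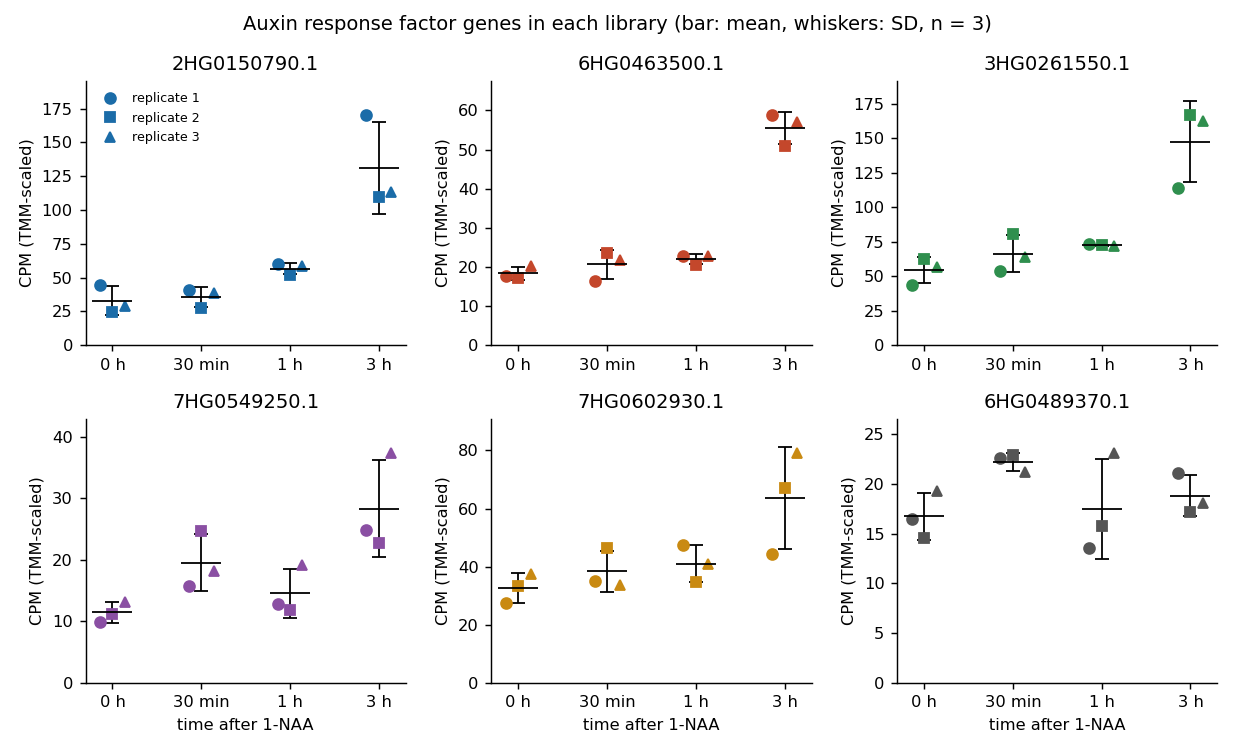
Level of each of the 6 genes in every library (y axis, CPM on TMM-scaled library sizes, starting at 0, with a scale of its own in each panel) at the 4 times (x axis, evenly spaced categories). Each marker is 1 library, its shape the replicate number, the bar is the mean and the whiskers are the SD of 3. In 5 panels all 3 libraries at 3 h lie above all 3 at 0 h, beside 6.66% of all genes. In the panel of 6HG0489370.1 they do not. The 6 were chosen with the change at 3 h known.

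Of the ARF19-like genes, 6HG0463500.1 changed most. Its level was 17.6, 17.2 and 20.3 CPM at 0 h, 16.4, 23.6 and 21.8 CPM at 30 min, 22.7, 20.6 and 22.7 CPM at 1 h, and 58.7, 50.9 and 57.1 CPM at 3 h. The 3 libraries of 3 h stood well above the 9 others, which lay close together. The log2 fold change against 0 h was 0.17 ± 0.15 (SE) at 30 min, 0.26 ± 0.15 at 1 h and 1.60 ± 0.15 at 3 h. Most of the difference lay between the last pair of times, with 1.34 ± 0.15 for 3 h against 1 h. The replicates lay close together at 3 h, with 55.6 ± 4.11 CPM (SD, n = 3).

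The other gene with Arabidopsis ARF19 as first homolog, 7HG0602930.1, had a smaller difference and a wider spread. It had 27.4, 33.2 and 37.5 CPM at 0 h, 34.9, 46.5 and 33.6 CPM at 30 min, 47.6, 34.5 and 41.1 CPM at 1 h, and 44.4, 67.0 and 79.1 CPM at 3 h. All 3 libraries of 3 h were above all 3 of 0 h, but replicate 1 of 3 h lay below replicate 2 of 30 min and replicate 1 of 1 h. The log2 fold changes against 0 h were 0.23 ± 0.22, 0.33 ± 0.22 and 0.96 ± 0.22 (SE) in order of time, and the last passed narrowly (edgeR adjusted p = 0.0456). The call at 3 h was kept in 2 of the 12 fits that each left out 1 library, those without 30 min replicate 2 and without 3 h replicate 1. In the other 10 it was lost, with adjusted p-values up to 0.197 (without 3 h replicate 3), while the log2 fold change stayed between 0.77 and 1.16 over the 12 fits. The call was also lost when only the libraries of 0 h and 3 h were fitted (edgeR adjusted p = 0.141). It was kept with the replicate number as a block (edgeR adjusted p = 0.0206) and by DESeq2 (adjusted p = 0.00339).

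The third long gene, 7HG0549250.1, was the least abundant of the 6 per coding length. Its level was 9.91, 11.2 and 13.2 CPM at 0 h, 15.7, 24.7 and 18.1 CPM at 30 min, 12.8, 11.8 and 19.2 CPM at 1 h, and 24.8, 22.8 and 37.3 CPM at 3 h. All 3 libraries of 30 min already lay above all 3 of 0 h, those of 1 h overlapped both, and 2 of the 3 at 3 h were above every earlier library, replicate 1 only just. The log2 fold change against 0 h was 0.77 ± 0.25 (SE) at 30 min (adjusted p = 0.824), 0.35 ± 0.25 at 1 h and 1.30 ± 0.25 at 3 h (adjusted p = 0.0176), by edgeR. The difference of 1 h from 30 min was -0.42 ± 0.25 (adjusted p = 1.00, edgeR), so a fall between these times was not shown. The call at 3 h was lost without 0 h replicate 1, 0 h replicate 2 or 3 h replicate 3, with adjusted p-values of 0.0807, 0.0764 and 0.0804 by edgeR. It was kept with the replicate number as a block (edgeR adjusted p = 0.00272) and by DESeq2 (adjusted p = 0.000114).

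The ARF2-like gene 3HG0261550.1 was expressed throughout and higher at 3 h. It had 43.7, 62.1 and 56.7 CPM at 0 h, 53.9, 80.5 and 64.1 CPM at 30 min, 72.9, 72.5 and 72.1 CPM at 1 h, and 113.8, 166.4 and 162.4 CPM at 3 h. The libraries of 3 h were above all 9 others, and those of 1 h were above all 3 of 0 h by a smaller margin. Replicate 1 was the lowest at 0 h, at 30 min and at 3 h, but not at 1 h. The log2 fold change against 0 h was 0.29 ± 0.19 (SE) at 30 min, 0.42 ± 0.19 at 1 h and 1.44 ± 0.19 at 3 h, and 3 h against 1 h it was 1.02 ± 0.19.

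The ARF16-like gene 2HG0150790.1 had the largest difference of the 6. Its level was 44.9, 24.6 and 29.0 CPM at 0 h, 41.0, 27.5 and 38.7 CPM at 30 min, 59.9, 52.01 and 58.3 CPM at 1 h, and 170.0, 109.9 and 113.1 CPM at 3 h. The libraries of 1 h lay above all those of 0 h and 30 min, and those of 3 h above all those of 1 h, whereas 30 min and 0 h overlapped. The log2 fold change against 0 h was 0.13 ± 0.24 (SE) at 30 min, 0.79 ± 0.24 at 1 h and 2.00 ± 0.25 at 3 h, which is 131.0 ± 33.8 CPM at 3 h against 32.8 ± 10.7 CPM at 0 h (SD, n = 3 each). Replicate 1 was the highest at every time, and at 3 h it was well apart from replicates 2 and 3.

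The short gene 6HG0489370.1 had no such change. It had 16.5, 14.5 and 19.2 CPM at 0 h, 22.6, 22.9 and 21.2 CPM at 30 min, 13.5, 15.7 and 23.1 CPM at 1 h, and 21.1, 17.2 and 18.1 CPM at 3 h. The 3 libraries of 30 min lay above the 3 of 0 h, and the libraries of 1 h and 3 h overlapped those of 0 h. The log2 fold changes against 0 h were 0.41 ± 0.19, 0.06 ± 0.19 and 0.16 ± 0.19 (SE) in order of time, and none was called.

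**Figure D2:**
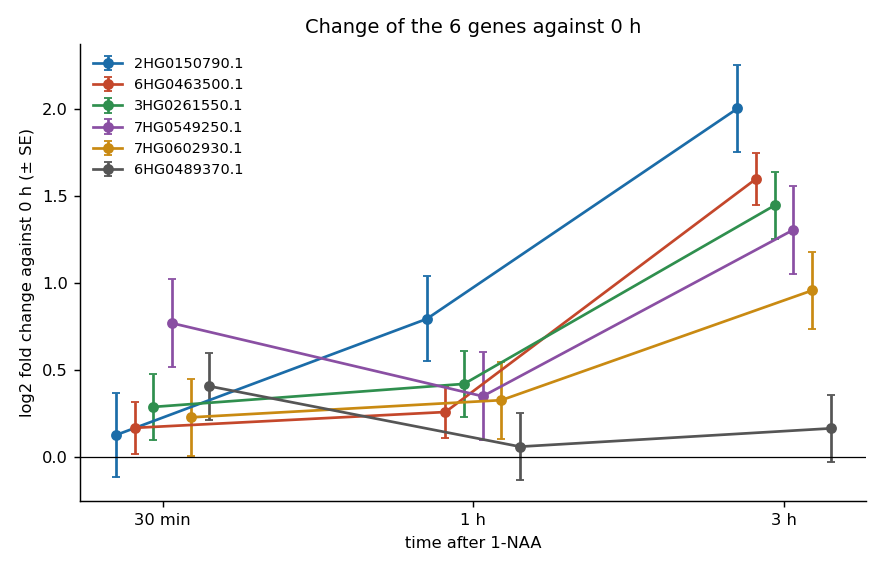
Log2 fold change of the 6 genes against 0 h (y axis) at 30 min, 1 h and 3 h (x axis) from the fit over all genes, with bars of 1 SE. At 3 h the 5 longer genes lie between 0.96 and 2.00 and 6HG0489370.1 at 0.16, while at 1 h the value of 2HG0150790.1, 0.79, is the highest of the 6.

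The number of genes whose 3 libraries of a later time all lay above all 3 of 0 h was 2 of the 6 at 30 min (7HG0549250.1 and 6HG0489370.1), against 4.68% of all genes. At 1 h it was 3 of the 6 (2HG0150790.1, 6HG0463500.1 and 3HG0261550.1), against 7.16%, and at 3 h it was 5 of the 6, against 6.66%. By this rule the genes that stood apart at 30 min were other genes than those at 1 h. In the fit without the replicate block, none of the 6 was called at either time. The rule depends on the spread as well as on the size of a change. At 1 h, 7HG0549250.1, which overlapped 0 h, had a log2 fold change of 0.35 ± 0.25 (SE). That of 6HG0463500.1, which did not overlap, was 0.26 ± 0.15. A difference in timing between the genes was not tested. In the plot of changes, 7HG0549250.1 was highest at 30 min and 2HG0150790.1 highest at 1 h and 3 h.

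Between the later times, 3 of the 6 were called higher at 3 h than at 30 min, when 2.68% of all genes were called, 1.52% of those tested as higher, and the same 3, 2HG0150790.1, 6HG0463500.1 and 3HG0261550.1, were called higher at 3 h than at 1 h, when 2.08% were, 1.19% of those tested as higher. For 7HG0549250.1 the log2 fold change was 0.54 ± 0.25 for 3 h against 30 min and 0.96 ± 0.25 for 3 h against 1 h (SE). For 7HG0602930.1 it was 0.73 ± 0.22 and 0.63 ± 0.22 in the same comparisons. No gene of the whole table was called between 1 h and 30 min by edgeR.

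Levels per coding length allow the genes to be set against each other. In CPM per kilobase, the order at 0 h was 6HG0489370.1 with 46.9 ± 6.61, 2HG0150790.1 with 28.0 ± 9.10, 3HG0261550.1 with 21.8 ± 3.81, 7HG0602930.1 with 9.26 ± 1.45, 6HG0463500.1 with 5.42 ± 0.510 and 7HG0549250.1 with 3.54 ± 0.516 (SD, n = 3). Of these neighbours only 2HG0150790.1 and 3HG0261550.1 overlapped. The value of 6HG0489370.1 rests on the shortest model of the 6. At 3 h the order was 2HG0150790.1 with 111.7 ± 28.8, 3HG0261550.1 with 59.5 ± 11.8, 6HG0489370.1 with 52.6 ± 5.77, 7HG0602930.1 with 18.0 ± 4.98, 6HG0463500.1 with 16.4 ± 1.21 and 7HG0549250.1 with 8.76 ± 2.44 (SD, n = 3). At 3 h 3HG0261550.1 overlapped 6HG0489370.1, and 7HG0602930.1 overlapped 6HG0463500.1. Genes 7HG0602930.1 and 6HG0463500.1, separate at 0 h, were thus not separate at 3 h, whereas 7HG0549250.1 lay below 6HG0463500.1 without overlap at 0 h and at 3 h.

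Of the 77 genes described as ARFs, 29 had enough reads to be tested, the 6 and 23 others. A further 35 had no read in any library, and 13 had reads but were not kept, the highest with 74 reads over the 12 libraries. The family in this annotation holds many short models: 55 of the 77 have under 1000 coding bases, of which 8 were tested, whereas 21 of the 22 longer ones were. Gene 6HG0489370.1 is the only short model among the 6.

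None of the 23 other tested ARF genes was called against 0 h at any time by edgeR. At an unadjusted p under 0.05 there were 0 at 30 min, 1 at 1 h and 2 at 3 h, beside 1095, 1432 and 2596 of all genes. DESeq2 called 0, 1 and 1 of the 23, beside 89, 114 and 1088 of all genes. The log2 fold changes of the 23 at 3 h ran from -0.59 to 0.63 with a median of -0.04. Over all genes tested the median was -0.004. The 5 called genes among the 6 thus had the 5 highest values of the family, which follows from how they were chosen. By edgeR, a single ARF gene outside the 6 was called between any times, 1HG0072210.1, with 0.70 ± 0.14 (SE) for 3 h against 30 min. It had 62.3 ± 0.471 CPM at 3 h against 38.2 ± 4.71 CPM at 30 min (SD, n = 3 each), and against 0 h its value was 0.53 ± 0.14 and was not called.

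**Figure D3:**
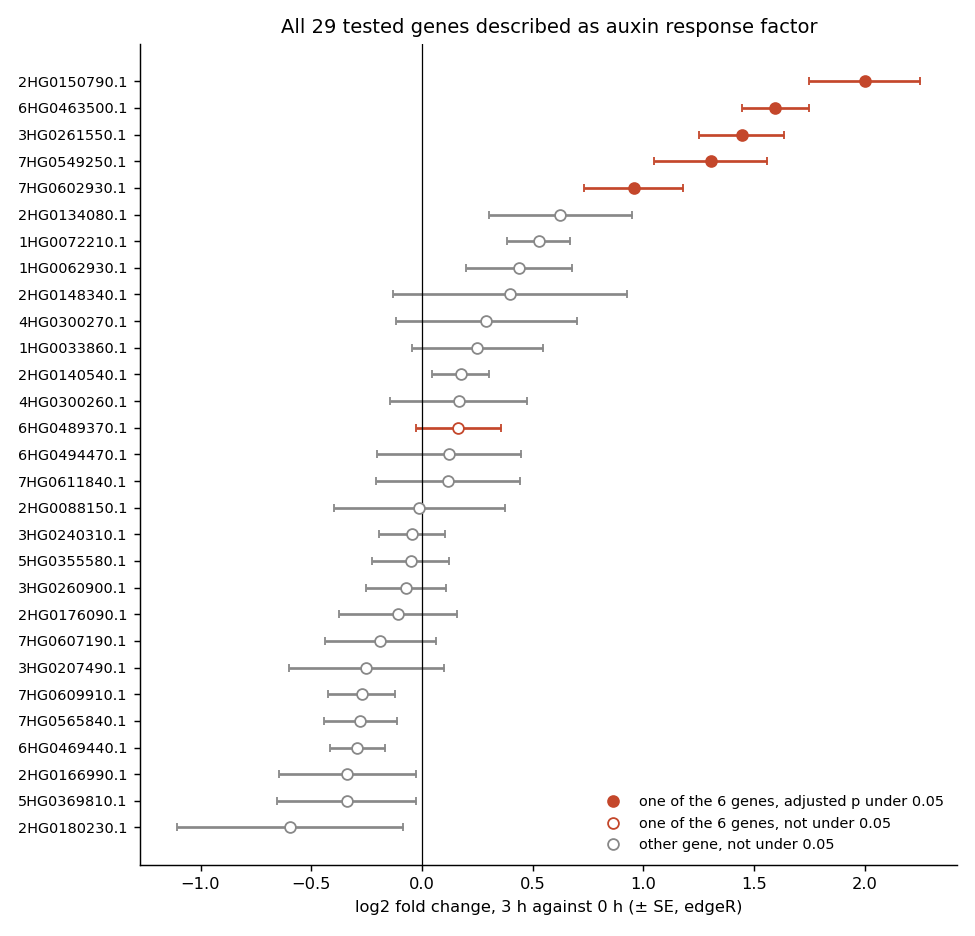
Log2 fold change at 3 h against 0 h of all 29 tested ARF genes, with bars of 1 SE and the 6 described genes marked. The 5 marked genes that were called lie from 0.96 to 2.00, and the 23 others and 6HG0489370.1 lie between -0.59 and 0.63.

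The summed level of the 29 genes was 461 ± 2.31 CPM per kilobase at 0 h, 472 ± 27.8 at 30 min, 503 ± 19.8 at 1 h and 614 ± 19.1 at 3 h (SD, n = 3). The sum of the 23 others was 346 ± 10.6 at 0 h, 330 ± 23.8 at 30 min, 354 ± 3.58 at 1 h and 347 ± 0.1002 at 3 h. The 6 genes made up 24.9 ± 2.06% of the family at 0 h, 30.2 ± 1.07% at 30 min, 29.6 ± 2.04% at 1 h and 43.5 ± 1.74% at 3 h. Without 6HG0489370.1 the share of the other 5 was 14.8 ± 0.938% at 0 h, 17.0 ± 0.217% at 30 min, 19.9 ± 1.03% at 1 h and 34.9 ± 1.09% at 3 h. The 6 were chosen with the change at 3 h known, so the higher share at 3 h follows from the choice and is only a description. In rank within the family by level per length, 2HG0150790.1 was number 5 at 0 h and number 1 at 3 h, and 3HG0261550.1 was number 10 at 0 h and number 2 at 3 h. These ranks depend on the coding lengths, 1173 bases for 2HG0150790.1 and 2481 for 3HG0261550.1. In CPM at 3 h, 3HG0261550.1 had the higher mean, 147.6 ± 29.3 against 131.0 ± 33.8 (SD, n = 3 each). The other 3 longer genes were lower, with 7HG0602930.1 at number 13, 6HG0463500.1 at number 14 and 7HG0549250.1 at number 18 at 3 h.

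**Figure D4:**
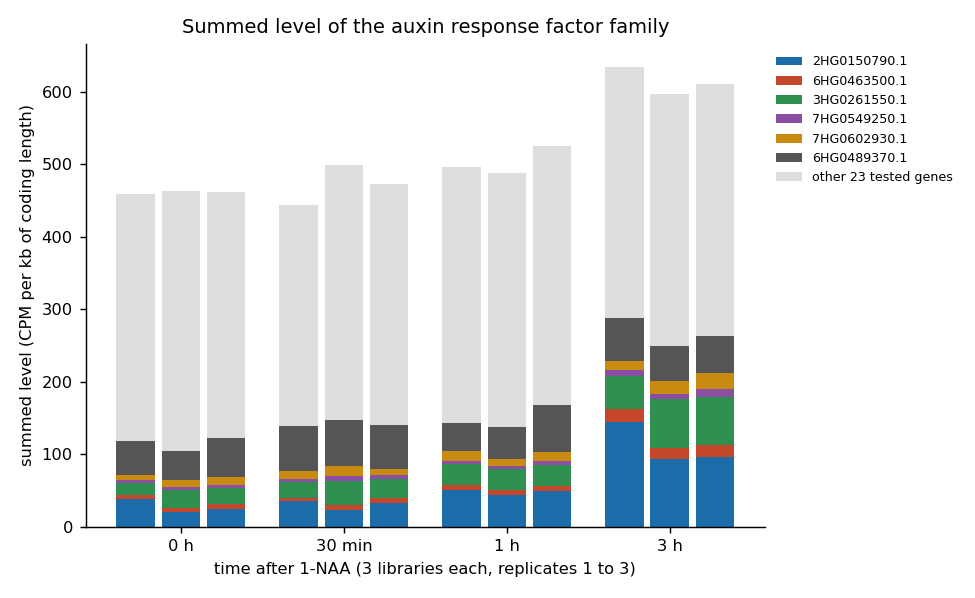
Summed level of the tested ARF genes in each library (y axis, CPM per kilobase of coding length, starting at 0) at the 4 times, as stacked bars with a colour for each of the 6 genes and grey for the 23 others. The 23 others are at 346 at 0 h and 347 at 3 h. The 6, which were chosen with the change at 3 h known, take 24.9% of the family at 0 h and 43.5% at 3 h.

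As for all 23 tested ARF genes outside the 6, none of the close relatives was called by edgeR against 0 h at 3 h. The 6 were chosen with these changes known, and the relatives were added after values had been seen. The contrasts and ratios that follow are therefore a description. The ARF gene 7HG0565840.1 also has Arabidopsis ARF19 as first homolog, and at 0 h it had the highest mean of the family, 47.04 ± 8.97 CPM per kilobase (SD, n = 3), level with 6HG0489370.1 within the spread. Its log2 fold change at 3 h was -0.28 ± 0.16 (SE). The ratio of 6HG0463500.1 to it, per length and within each library, was 0.424 ± 0.0165 at 3 h against 0.117 ± 0.0179 at 0 h (SD, n = 3 each). For 7HG0602930.1 the ratio to the same gene was 0.472 ± 0.153 at 3 h against 0.202 ± 0.0507 at 0 h. The lowest library of 3 h, at 0.296, was just above the highest of 0 h, at 0.255.

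Gene 3HG0260900.1 has Arabidopsis ARF2 as first homolog and is the ARF gene nearest to 3HG0261550.1 on its chromosome, 1862010 bases away. It had a log2 fold change of -0.07 ± 0.18 (SE) at 3 h. The ratio of 3HG0261550.1 to 3HG0260900.1 was 1.45 ± 0.111 at 3 h against 0.511 ± 0.0225 at 0 h (SD, n = 3 each), so that the order of the pair was the opposite at these times. Replicate 1 was the lowest at 0 h and at 3 h for both genes.

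Besides 2HG0150790.1, 3 tested genes have Arabidopsis ARF16 as first homolog, with means of 11.3 CPM for 1HG0033860.1, 2.30 CPM for 6HG0494470.1 and 12.9 CPM for 7HG0607190.1 at 0 h. Their log2 fold changes at 3 h were 0.25 ± 0.29 for 1HG0033860.1, 0.12 ± 0.32 for 6HG0494470.1 and -0.19 ± 0.25 for 7HG0607190.1 (SE). The ratio of 2HG0150790.1 to 1HG0033860.1 was 17.5 ± 6.26 at 3 h against 5.50 ± 2.86 at 0 h, and to 7HG0607190.1 it was 23.8 ± 15.0 at 3 h against 4.86 ± 2.62 at 0 h (SD, n = 3 each). To 6HG0494470.1 it was 110 ± 22.2 at 3 h against 28.7 ± 8.06 at 0 h. By all 3 ratios 2HG0150790.1 was already the main ARF16-like transcript at 0 h. Its model has 1173 coding bases, against 2067 for 1HG0033860.1, 2334 for 6HG0494470.1 and 2094 for 7HG0607190.1, which raises the ratios per length. In CPM its mean at 0 h, 32.8, was also above theirs, by a smaller factor.

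The genes 6HG0463500.1 and 7HG0549250.1 share the rice homolog OS02T0141100. The ratio of 6HG0463500.1 to 7HG0549250.1 was 1.54 ± 0.129 at 0 h, 1.02 ± 0.119 at 30 min, 1.49 ± 0.317 at 1 h and 1.95 ± 0.429 at 3 h (SD, n = 3). All 3 libraries of 30 min were below all 3 of 0 h, and those of 1 h and 3 h overlapped 0 h. A shift of reads between the 2 genes was not tested.

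**Figure D5:**
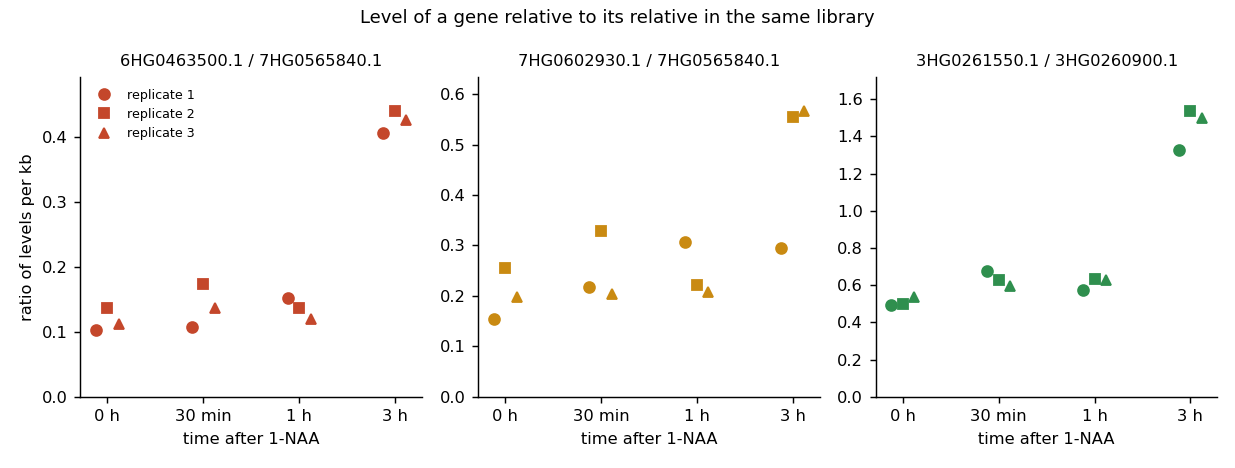
Ratio of a described gene to a relative, per coding length and within each library (y axis, no unit, starting at 0), at the 4 times (x axis), with 1 marker per library. For 6HG0463500.1 over 7HG0565840.1 and 3HG0261550.1 over 3HG0260900.1 the 3 libraries of 3 h stand well above all others, with means of 0.424 and 1.45.

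The genes whose log2 CPM was most alike over the 12 libraries are given by Pearson's r as a description, since the libraries share their times and any gene that is high at 3 h will correlate. For 6HG0463500.1 the nearest were 5HG0360110.1, an auxin-responsive protein (r = 0.988), a gene described as a transcription factor protein, 4HG0336070.1 (0.978), and a membrane-associated kinase regulator-like gene, 4HG0343510.1 (0.973). For 2HG0150790.1 they were 7HG0599820.1, described as 30S ribosomal protein S2 (0.980), the glycosyltransferase 4HG0296970.1 (0.977) and the LOB domain gene 4HG0339920.1 (0.977). For 3HG0261550.1 they were the bHLH transcription factor gene 6HG0472110.1 (0.977), the homeobox leucine zipper gene 3HG0228030.1 (0.970) and the short-chain dehydrogenase/reductase gene 1HG0004660.1 (0.969).

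The other 3 genes had less close neighbours. For 7HG0602930.1 these were a bHLH gene, 1HG0054180.1 (r = 0.944), a gene of cytokinin activation described as cytokinin riboside 5'-monophosphate phosphoribohydrolase, 3HG0222470.1 (0.936), and 2HG0096170.1, a phosphatidylinositol 4-phosphate 5-kinase gene (0.932). For 7HG0549250.1 they were 7HG0599290.1, an alpha/beta-hydrolase gene (0.922), 4HG0319000.1, described as a xyloglucan xylosyltransferase (0.915), and 6HG0501330.1, an RCC1 family gene (0.913). For 6HG0489370.1 they were 4HG0344860.1, a rhomboid-like gene (0.882), 7HG0530810.1, a cellulose synthase-like gene (0.850), and a BSD domain gene, 7HG0581030.1 (0.844). Among themselves the 5 longer genes correlated with r between 0.582 and 0.931, and 6HG0489370.1 correlated with them at 0.00381 to 0.508, highest with 7HG0549250.1. None of the 6 was among the 3 nearest genes of another.

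The rest of the pathway was taken from lists of genes by description. Counts called against 0 h by edgeR are read beside the shares of all genes called higher. These were 0.00401% at 30 min, 0.0963% at 1 h and 1.68% at 3 h. Counts at an unadjusted p under 0.05 are read beside 1095, 1432 and 2596 of all 24920 genes at these times. Those of DESeq2 are read beside its 89, 114 and 1088 of all genes. Aux/IAA proteins hold activator ARFs in check. Of their genes, 12 of 26 tested rose at 3 h, 4 at 1 h and 0 at 30 min by edgeR. At 30 min there was 1 at an unadjusted p under 0.05 and 1 by DESeq2. None of the 26 was called lower than at 0 h by edgeR. Their median log2 fold change at 3 h was 1.31. Gene 3HG0199050.1, with Arabidopsis IAA17 as homolog, had 193 ± 60.7 CPM at 3 h against 19.9 ± 3.08 CPM at 0 h (SD, n = 3 each), a difference of 3.28 ± 0.25 (log2, SE). Gene 6HG0520360.1, an IAA4 homolog, had 211 ± 33.5 CPM at 3 h against 1.18 ± 0.406 CPM at 0 h.

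Over all genes, 0.799% were called lower at 3 h by edgeR. Of 8 tested receptor genes of the TIR1 and AFB kind, 1 fell at 3 h and none rose, with a median of -0.26. It was 4HG0338270.1, a homolog of AFB5, with 29.0 ± 1.70 CPM at 3 h against 62.6 ± 11.5 CPM at 0 h and a log2 fold change of -1.11 ± 0.15 (SE). The TIR1 homolog 1HG0017830.1 had -0.52 ± 0.18 and was not called. Of 7 tested TOPLESS corepressor genes, none was called against 0 h by edgeR, none had an unadjusted p under 0.05 in these comparisons and DESeq2 called 0; the 2 with the smallest F-test p, 3HG0210350.1 and 5HG0367960.1, had -0.28 ± 0.13 and -0.26 ± 0.24 at 3 h.

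Among the known targets of ARFs, the GH3 genes, whose enzymes join auxin to amino acids, had 1 of 9 tested called at 30 min, 2 at 1 h and 3 at 3 h, all higher. The call at 30 min was the only one in the whole table, and it was lost without 0 h replicate 1, 0 h replicate 2, 30 min replicate 1 or 30 min replicate 3, each of which left 0 genes called. Gene 2HG0106420.1 was at 1107 ± 255 CPM at 3 h against 9.46 ± 0.372 CPM at 0 h (SD, n = 3 each), and 3HG0242100.1 at 332 ± 38.8 CPM at 3 h against 3.69 ± 0.952 CPM at 0 h. Of 22 tested LOB domain genes, 7 rose at 3 h and 0 were called at 30 min and 1 h by edgeR, with 4 at an unadjusted p under 0.05 at each of these times and 0 and 1 by DESeq2. Their median at 3 h was 0.25. The LBD29 homolog 4HG0339920.1 had 120 ± 23.1 CPM at 3 h against 14.9 ± 4.24 CPM at 0 h, and the LBD16 homolog 6HG0523370.1 had 4.44 ± 0.496 CPM at 3 h against 0.428 ± 0.105 CPM at 0 h.

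Of 45 tested SAUR genes, early auxin-responsive genes of cell expansion, 12 rose at 3 h with a median of 0.52 over the list. At 30 min and 1 h none was called by edgeR, with 4 and 10 at an unadjusted p under 0.05 and 0 and 2 by DESeq2. Gene 5HG0416900.1, a SAUR66 homolog, had 8.47 ± 1.10 CPM at 3 h against 1.84 ± 0.443 CPM at 0 h, and 2HG0152760.1 had 11.97 ± 0.635 CPM at 3 h against 2.49 ± 1.05 CPM at 0 h (SD, n = 3 each). The comparisons with 0 h share its libraries, and differences in timing between the lists were not tested.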

How the data were processed

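Raw read counts per gene were deposited by the authors for 12 crown libraries, with no normalization. Per the submitters' processing notes, the tools were Subread 1.5.2, HISAT2 2.0.5, SAMtools and bcl2fastq, and the labels name poly(A) selection, a directional kit and paired reads of 150 bases. Neither the genome build nor how counting treated strand and multi-mapping reads is stated in the sources at hand. The gene length, which stands in the deposited table as another value of the authors, was called coding length, since 98.91% of lengths are multiples of 3. Log2 fold changes that the authors deposited served only as a check: for the 6 genes they differed from those computed here by at most 0.00963. Homologs and descriptions are those of the authors' deposited table.

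Genes were kept by filterByExpr (minimum count 10, minimum total 15) and scaled by TMM. A single model for all 4 times was fitted with edgeR 4.0.16 in R 4.3.3 (residual degrees of freedom 8, median prior degrees of freedom 3.59) and called genes at a Benjamini-Hochberg adjusted p under 0.05 over 24920 genes. The SE is the log2 fold change divided by the square root of the F statistic. DESeq2 1.42.0 was an alternative, and figures were drawn with matplotlib 3.10.9. The prior count for log2 CPM was 2. A total of 3 counts equals 0.0849 to 0.193 CPM, which covers counting error only. The 6 genes, the lists, the tests and the alternatives were chosen with earlier results of these data known, and list words were amended after the descriptions were read. Genes named are the 6, any other ARF gene called by edgeR in any comparison, and the 2 genes of each pathway list with the smallest F-test p. Also named are the 3 genes most alike to each of the 6 with a description and a mean of at least 1 CPM. The relatives that share a first Arabidopsis homolog were added after values had been seen.

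Replicates were not duplicates (chi-square per degree of freedom 15.9 to 87.3). Residuals of libraries with the same replicate number correlated at 0.450 to 0.641 for 30 min and 0 h and at 0.203 to 0.595 for 3 h and 0 h. The numbers were taken to pair those libraries. For 1 h and 0 h the lowest was 0.0958, and they were not taken as pairs. Libraries of different numbers and times correlated at -0.593 to 0.268. The pairing was less clear for replicate 2, whose 0 h library correlated at 0.203 with 3 h replicate 2 and at 0.257 with 3 h replicate 3. The procedure was tested on simulated data.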

Additional observations from a re-analysis of the deposited data

How the results depend on the processing

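The 5 calls at 3 h among the 6 genes were also made by DESeq2, with DESeq2 size factors, with no filter on low counts and with the replicate block, and 4 were made when only the 2 times compared were fitted. Leaving out 1 library gave 3 to 5 called genes of the 6 at 3 h and 374 to 627 of all genes, 3 to 27 of all genes at 1 h and 0 to 3 at 30 min. In the F-test it gave 3 to 4 of the 6 and 297 to 560 genes. The count of the 6 was 3 without 0 h replicate 1, 0 h replicate 2 or 3 h replicate 3. The count of all genes at 3 h was 375 without 0 h replicate 3 and 374 without 3 h replicate 3, and that of the F-test 331 without 3 h replicate 2 and 297 without 3 h replicate 3. At 1 h the count of all genes lay between 3 and 14 when any library of 0 h or 1 h was left out, lowest without 1 h replicate 1 or 3, and was 9 without 3 h replicate 2. Genes 6HG0463500.1, 2HG0150790.1 and 3HG0261550.1 kept the call at 3 h in all 12 such fits, 7HG0549250.1 in 9 and 7HG0602930.1 in 2. Chosen after seeing the data, leaving out all 4 libraries of replicate 1, 2 or 3 left 4, 2 and 1 of the 6 called at 3 h (6HG0463500.1 in each fit), with 506, 110 and 149 genes, and 3, 1 and 1 of the 6 in the F-test, with 409, 65 and 161 genes. It left 1, 2 and 12 genes at 1 h and 0, 0 and 21 at 30 min. These fits have 2 libraries a time. DESeq2 called 89, 114 and 1088 genes at 30 min, 1 h and 3 h, and in its test over the 4 times 1553 genes and 5 of the 6. With no filter 2 genes were called at 30 min. Fits of the 2 times alone called 8 genes at 1 h and 377 at 3 h. No fold change of the 6 that was called reversed under any alternative run.

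With the replicate block, 3 genes were called at 30 min, 66 at 1 h, 1269 at 3 h and 1446 in the F-test, where 4 of the 6 passed. Of the 6, 1 was called at 1 h with the replicate block, 2HG0150790.1 (edgeR adjusted p = 0.0414). Replicate numbers of 1 h and 0 h were not taken as pairs. The causes of these differences were not tested.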
